A study of Homo sapiens with 22 samples.

Results

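Transcripts that GENCODE annotates as targets of nonsense-mediated decay were examined in a pulse-chase RNA-seq experiment in HEK293T cells. A row of the count tables was taken where its transcript ID had the GENCODE type nonsense_mediated_decay, its gene was not ZNF598, and its mean level over the libraries of 0 to 10 h was at least 1 CPM, a count scaled to the size of its library. This gave 9513 rows of 4401 genes, out of 16041 rows of this type at any level, 79513 rows of any type that passed the same level, and 227264 rows in all. They held 9.81% of all counts. The threshold fell in a continuous range of values: a row of TMEM126B (0.999 CPM) lay just outside it, and rows of CHN1 and NPIPB12 just inside.

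Nonsense-mediated decay degrades mRNAs whose open reading frame ends early. In mammals an exon junction complex that stays on the mRNA well downstream of the stop codon marks the stop as premature, and UPF1, the SMG kinases and the decay enzymes then act while the mRNA is being translated. Many genes of splicing factors make such transcripts by including a poison exon, an extra exon that carries an in-frame stop codon, and so limit their own protein. ZNF598, the protein depleted here, is a ubiquitin ligase that recognises collided ribosomes.

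HEK293T is a human embryonic kidney line that expresses the SV40 large T antigen. Cells carried an shRNA against ZNF598 (shZNF598) or a control shRNA (shControl), were fed bromouridine (BrU) at 150 µM for 24 h, and were then moved to medium without it, and BrU-labelled RNA was isolated after 0, 2, 4, 6, 10 and 24 h (BRIC-Seq). There were 2 libraries for each shRNA and time up to 10 h and 1 for each shRNA at 24 h. The labels do not say whether the cells were clones, or whether replicate libraries came from separate cultures. The p-values therefore measure the spread between these libraries, which may be technical. Where a straight line was fitted over chase time, that spread also includes departures from the line. A change in RNA per cell and a change in the number of cells cannot be told apart in such libraries.

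Library totals ran from 52352359 to 96963584 counts at 0 to 10 h, and were 21220829 (shControl) and 40157613 (shZNF598) at 24 h. ZNF598 itself, as ENST00000562103.2, was at 7.63 ± 1.05 CPM (SD, n = 2) in shControl and 0.902 ± 0.208 CPM (SD, n = 2) in shZNF598 cells at 0 h, a log2 difference of -3.08 (SE 0.188, adjusted p = 2.59e-10, edgeR). Of the HEK293T genes looked up, LIN28B was at 7.28 to 44.3 CPM and INA at 5.28 to 18.3 CPM, while PAX2, also taken as a marker of this line, was near absent at 0.0103 to 0.091 CPM. Genes of leukocytes, liver, red cells and heart were at or near 0, and the fibroblast gene COL1A1 was at 0.629 to 1.36 CPM. The shControl 0 h replicates differed more than any other pair, with a chi-square per degree of freedom of 18.8 against 2.31 to 12.6.

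The values are counts per transcript row, and a read in an exon that several transcripts share can be counted in each of them. A row of the decay type is therefore mostly a second reading of its gene's coding mRNA unless it has bases or splices of its own. Each row was compared with the protein_coding row of the same gene that had the highest mean count, called the coding row below, which was present for 9236 rows of 4202 genes. How much of a row lay outside every protein_coding transcript of its gene was measured from the annotation.

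Most of these rows were short. The median row had 8 exons, 1413 nt, 305 nt of coding sequence and 762.5 nt after the stop codon, with 3 exon junctions still to come. Among 8957 rows matched with their version, 8952 had an annotated stop codon, and in all 8952 the last junction lay at least 50 nt downstream of it, at a median of 390 nt. The smallest distance was 50 nt. These distances come from the annotation that gave the rows their type, and are no result of the counts. Of 8714 rows that could be compared with coding transcripts, 3260 (37.4%) had no base of their own, 2400 (27.5%) had an extra internal exon as their largest such stretch, 2372 (27.2%) had an exon extension and 313 (3.59%) a retained intron. The stop codon itself lay outside every coding transcript in 3003 of 8709 rows (34.5%). Only 1069 rows (12.3%) had at least 25% of their bases to themselves, and 322 (3.7%) at least 50%.

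The coding bases that lead into the early stop are printed for rows that the results turn on, as the last 27 coding bases in lower case and the stop codon in capitals, 5′ to 3′, from GRCh38 with GENCODE 44 transcripts. The first group has its stop in an extra exon that no coding transcript of the gene contains. Stop codons lie at chr3:128644607-128644609 (RPN1, minus strand, 112-nt exon), chr6:36599852-36599854 (SRSF3, plus strand, 456-nt exon), chr12:120464812-120464814 (SRSF9, minus strand, 90-nt exon), chr5:179621951-179621953 (HNRNPH1, minus strand, 134-nt exon), chr16:1963741-1963743 (RPS2, minus strand, 187-nt exon), chr17:67361253-67361255 (PSMD12, minus strand, 167-nt exon), chr3:50327168-50327170 (TUSC2, minus strand, 182-nt exon) and chr2:206160888-206160890 (EEF1B2, plus strand, 246-nt exon).
RPN1: ccaggctccattactgtggtgccatgtTGA
SRSF3: accatcatgtctcttctcaccaccctcTGA
SRSF9: ttccgagttcttgtttcagaaaactatTAG
HNRNPH1: tctgcgttggtaacggaaagcgacctgTAA
RPS2: ctcaccaaacaagagaaaaagggcaaaTAG
PSMD12: gagtgtgcgaagctagccaaggttgtgTAA
TUSC2: acactgggccagcagcatcttctggagTGA
EEF1B2: aagtcttacgaaaaggaaaaggccaggTAG

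In RPN1 the stop followed 121 codons, against 607 in the coding transcript, and left 72 nt to the last junction. In SRSF3 it followed 124 codons against 164, with 548 nt and 3 junctions after it. In PSMD12 it followed 38 codons against 456. The second group, shown because its rows differed in slope between the shRNAs, has its stop in bases that coding transcripts also contain. The stops lie at chr11:63753088-63753090 (RTN3, plus strand), chr2:169819565-169819567 (METTL5, minus strand), chr5:134790120-134790122 (DDX46, plus strand), chrX:154434216-154434218 (ATP6AP1, plus strand) and chr7:74107105-74107107 (LIMK1, plus strand).
RTN3: ccattcaactggctgtcttcatgtggcTGA
METTL5: agtatattccttacacaaatcctcaacTAG
DDX46: gccgctaacagtggtgatgctgtcagaTAA
ATP6AP1: agcggtccgcccttccagggtggcccgTGA
LIMK1: acctgggtcgctctgagtccctccgcgTAG

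The level of a row per kilobase in shControl cells at 0 h, set against its coding row, was lower the more of the row was its own. Where no base lay outside coding transcripts the median row was at 1.09 times its coding row per kb (n = 3256 rows). It was 1.04 times with up to 10% outside (n = 2837), 0.948 times with 10% to 25% (n = 1539), 0.727 times with 25% to 50% (n = 741) and 0.485 times above 50% (n = 309). The order over the 5 classes was strictly descending, and it is a description of rows that share reads, with no test. Retained-intron rows with at least 50% outside were at 0.442 times (n = 3157) and rows without a defined coding sequence at 0.467 times (n = 832), so the low level was not particular to the decay type. Leaving out rows with any base in an exon of another gene, members with at least 25% outside were at 0.666 times (n = 602).

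**Figure D1:**
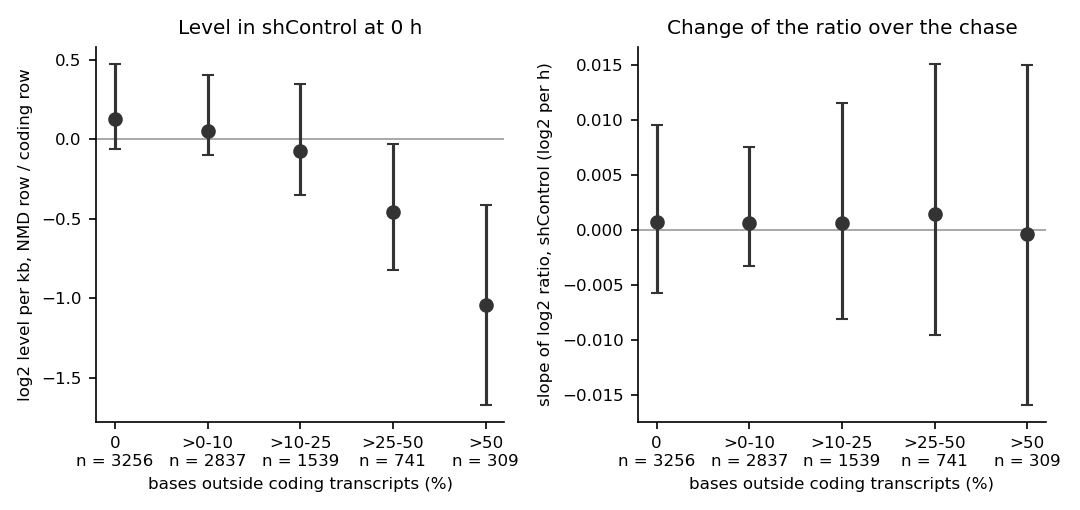
Level of annotated decay rows (NMD rows) per kb against the coding row of the gene in shControl cells at 0 h (log2) and slope of that ratio over the chase in shControl cells (log2 per hour), for rows grouped by the percentage of their bases outside coding transcripts, with medians and quartiles. The median level falls from 1.09 times to 0.485 times the coding row, while the median ratio slopes stay between -0.00036 and 0.00144.

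The shControl chase asked how fast each RNA was lost. Slopes are in log2 per hour after TMM scaling, which sets each library against its own bulk: a value below 0 is faster loss than the bulk and one above 0 slower loss. In shControl cells 3194 decay rows were retained longer than the bulk and 3744 were lost faster at an adjusted p below 0.05 (edgeR's quasi-likelihood test, Benjamini-Hochberg adjustment). That is 72.9% of the rows, against 74.4% of all rows tested, so the share called was near the background. The median slope was -0.0140, between that of the coding rows with the highest counts (-0.0574) and that of retained-intron rows (0.0121), while other coding rows were at -0.0266. In shZNF598 cells 3063 were higher and 3625 lower (background 71.2%), with a median of -0.0132.

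A row's slope was close to that of its coding row. Over 8690 rows Pearson's r was 0.981 and Spearman's rho 0.980, and 78.9% of rows were within 0.02 log2 per hour of the coding row. These points share reads, most of all in the 3260 rows with no base of their own (r = 0.986). Among the 309 rows with at least 50% of their bases outside, r was 0.906 and 58.6% were within 0.02. Shared reads bring such slopes together, so their closeness does not measure how the decay rows' own RNA was lost.

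**Figure D2:**
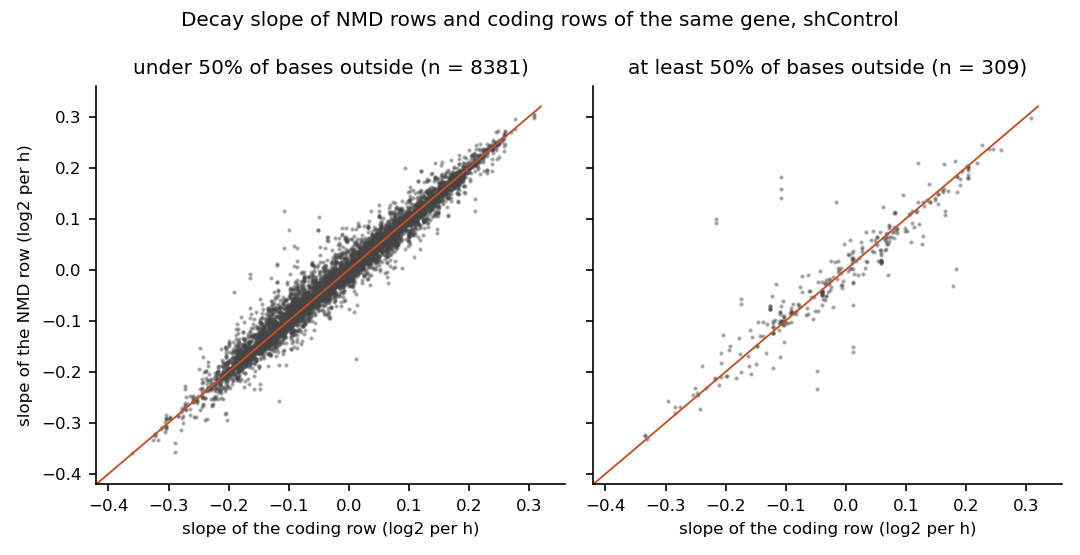
Slope of each annotated decay row in shControl cells against the slope of the coding row of its gene (both log2 per hour relative to the bulk), with 1 panel for rows with under 50% and 1 for rows with at least 50% of their bases outside coding transcripts, and the diagonal of equal slopes. Points lie along the diagonal (r = 0.981 over both panels, 0.906 in the second), and points of one gene share reads.

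To take the gene out, the log2 ratio of each row to its coding row was fitted over the chase with limma, for 9226 rows of 4198 genes. In shControl cells the ratio rose for 965 rows of 651 genes and fell for 546 rows of 421 genes, beside a background of 16.7% of 62362 rows of all types. The members' share was 16.4%, and the median slope of the ratio was 0.000656 (quartiles -0.00596 and 0.00962). Most calls were small: 763 of the 965 and 460 of the 546 were under 0.05 log2 per hour in size, and 27 and 12 reached 0.1. In 49 genes some rows rose and others fell. The counts depended on the last shControl time: they came to 972 without shControl 10 h replicate 1 and 854 without replicate 2, against 1511 with all libraries. In the shZNF598 cells 785 rose and 390 fell (background 12.6%, with 7.58% up and 5.07% down), and 939 of the 965 and 510 of the 546 had the same sign there.

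Other types gave shares of the same size. Retained-intron rows rose in 1046 and fell in 1107 of 12970, other coding rows rose in 3257 and fell in 2042 of 32129, and rows without a defined coding sequence rose in 835 and fell in 602 of 7988. The share called lower than the coding row was 5.92% among annotated decay rows and 6.9% over all rows. Among members by bases outside, the share called was 15.9% with none outside and 23.0% above 50%.

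Rows with at least 50% of their bases outside were lower early in the chase. Against 0 h, the median ratio of these 309 rows changed by -0.0431 log2 at 2 h, -0.0454 at 4 h, -0.0344 at 6 h and -0.00625 at 10 h in shControl cells, and 66.3% of the rows were below their 0 h value at 2 h. In shZNF598 cells the changes were -0.0279, -0.0584, -0.00990 and -0.00345, with 69.9% of rows below at 4 h. Both 2 h and both 4 h libraries lay below both 0 h libraries in each of the shRNA arms. Among the 145 of these rows with no base in an exon of another gene this held at 4 h, and the 2 h libraries overlapped those of 0 h in both arms. The median over all members stayed within -0.00642 and 0.00877. The dip was also found in other types: retained-intron rows with at least 50% outside changed by -0.0676, -0.0687, -0.0672 and -0.0277 in shControl cells. No test was run on these medians.

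**Figure D3:**
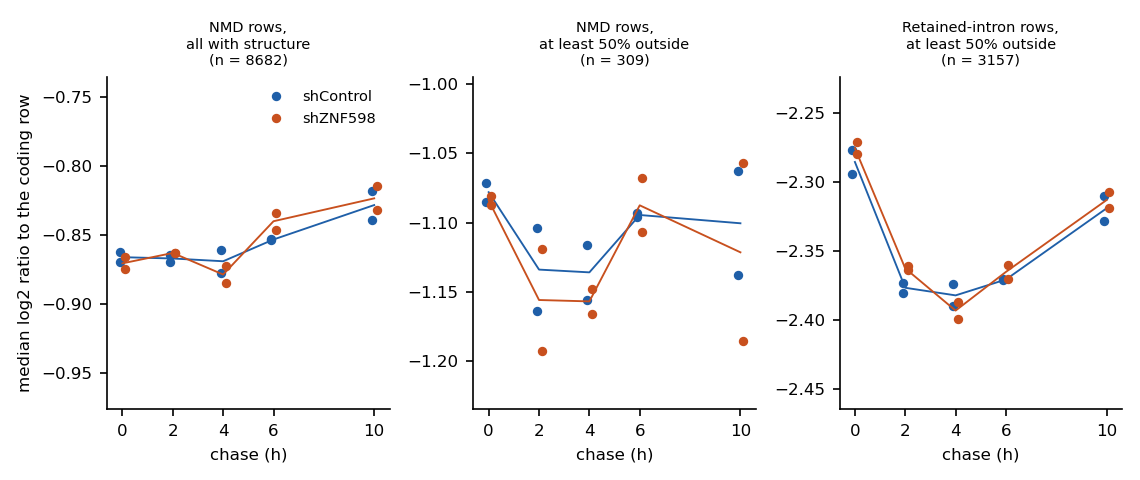
Median log2 ratio of rows to the coding row of their gene in each library (points) over chase time in hours, with means joined by lines, for shControl and shZNF598 cells, in all NMD rows with a known structure, in those with at least 50% of their bases outside, and in retained-intron rows with at least 50% outside. For annotated decay rows with at least 50% of their bases outside coding transcripts the shControl mean is -1.08 at 0 h, -1.13 at 2 h, -1.14 at 4 h and -1.10 at 10 h.

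Of the genes whose ratio fell most, several were rows that run through or into other genes. SYNJ2BP-COX16 (ENST00000618385.1), a readthrough transcript of SYNJ2BP and COX16, went in shControl cells from log2 ratios of -1.56 and -1.86 at 0 h to -3.76 and -3.54 at 10 h. The groups did not overlap, and the slope was -0.210 (SE 0.0233, adjusted p = 2.04e-05, limma), with 94.1% of its bases in exons of other genes. PDIA5 (ENST00000469649.1), of a protein disulfide isomerase of the endoplasmic reticulum, went from 0.36 and 0.35 to -1.19 and -1.10, a slope of -0.184 (SE 0.0285, adjusted p = 0.000365, limma). Its own 67.9% of bases also lay in exons of another gene. APOLD1, an apolipoprotein L domain protein, was at -0.187, the gene ENSG00000257390 at -0.187 (96.7% in exons of other genes) and SERF2 at -0.180, and all of these 5 fell in shZNF598 cells too, by slopes of -0.162 to -0.214. Reads of the other gene and reads of the decay row cannot be told apart there.

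Among rows that gained on their coding row, SLC35G1 (ENST00000483386.5), of a solute carrier family member, had log2 ratios of -0.57 and -0.93 at 0 h and 1.53 and 2.06 at 10 h in shControl cells. Its slope was 0.311 (SE 0.0595, adjusted p = 0.00187, limma), it has 94.4% of its bases outside coding transcripts, and none lie in another gene. TAF1D, a subunit of the RNA polymerase I promoter factor, gained with ENST00000393259.6 from -0.33 and 0.02 to 2.55 and 2.43, a slope of 0.286 (SE 0.0238, adjusted p = 1.53e-06, limma). The 10 h libraries lay above the 0 h libraries in both genes. SYNGR1, a synaptic vesicle protein, followed at 0.183, IP6K2, an inositol hexakisphosphate kinase, at 0.155 and ATP5MF-PTCD1, a readthrough transcript, at 0.15. In shZNF598 cells these slopes were 0.116 to 0.291, all called. At 24 h, with 1 library for each shRNA and so no replicate, the SLC35G1 ratio was back at -0.92 (shControl) and -1.22 (shZNF598) and the PDIA5 ratio at 0.07 and -0.12, while the TAF1D ratio stood at 3.22 and 2.64. SYNJ2BP-COX16 was also back near its 0 h ratios, at -2.09 and -1.56. In the same order APOLD1 was at -0.77 and -1.12, ENSG00000257390 at -3.86 and -3.45 and SERF2 at -2.13 and -3.28. SYNGR1 was at -1.02 and -2.53, IP6K2 at -0.65 and -0.15 and ATP5MF-PTCD1 at -0.54 and -1.28.

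Further rows without any base in another gene were chosen after their values were seen. DCTN5, a dynactin subunit, had a ratio slope of -0.139 (SE 0.0242, adjusted p = 0.000899, limma), and its log2 ratio went from -3.41 and -3.05 at 0 h to -4.27 and -4.41 at 10 h. PSMD12, a subunit of the proteasome cap whose early stop is printed above, went from -4.21 and -3.87 to -4.65 and -4.98, a slope of -0.0983 (adjusted p = 0.0074, limma). The PSMD12 row was at 1.82 and 1.86 CPM at 0 h and 0.332 and 0.238 CPM at 10 h in shControl cells. Its 10 h ratios thus rest on low counts. In shZNF598 cells the PSMD12 slope was -0.0606 with an adjusted p of 0.0948 (limma), which missed the threshold. TCTN1, a protein of the ciliary transition zone, was at -0.0963, the zinc finger protein ZNF326 at -0.0921, the mitotic checkpoint kinase BUB1B at -0.0901 and RABGAP1L, a Rab GTPase-activating protein, at -0.0829. In the other direction TUSC2, whose stop is also printed above, went from -1.94 and -1.78 to -0.68 and -0.57, a slope of 0.131 (adjusted p = 6.68e-05, limma), and the histone acetyltransferase KAT6B had a slope of 0.130. At 24 h, with 1 library for each shRNA, the ZNF326 ratio was -1.36 (shControl) and -1.63 (shZNF598), against -1.665 and -1.619 in shControl at 0 h. In the same order TUSC2 was at -1.27 and -1.68, DCTN5 at -4.04 and -3.87 and PSMD12, with 0 CPM in shControl, at -8.29 and -4.88. TCTN1 was at -1.41 and -1.32, BUB1B at -4.01 and -4.39, RABGAP1L at -1.40 and -1.65 and KAT6B at -1.175 and -0.995. Of these rows, PSMD12 and BUB1B, which fell, and TUSC2 and KAT6B, which rose, have their early stop in an extra exon of their own. The stops of DCTN5, TCTN1, ZNF326 and RABGAP1L do not lie in an extra exon.

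**Figure D4:**
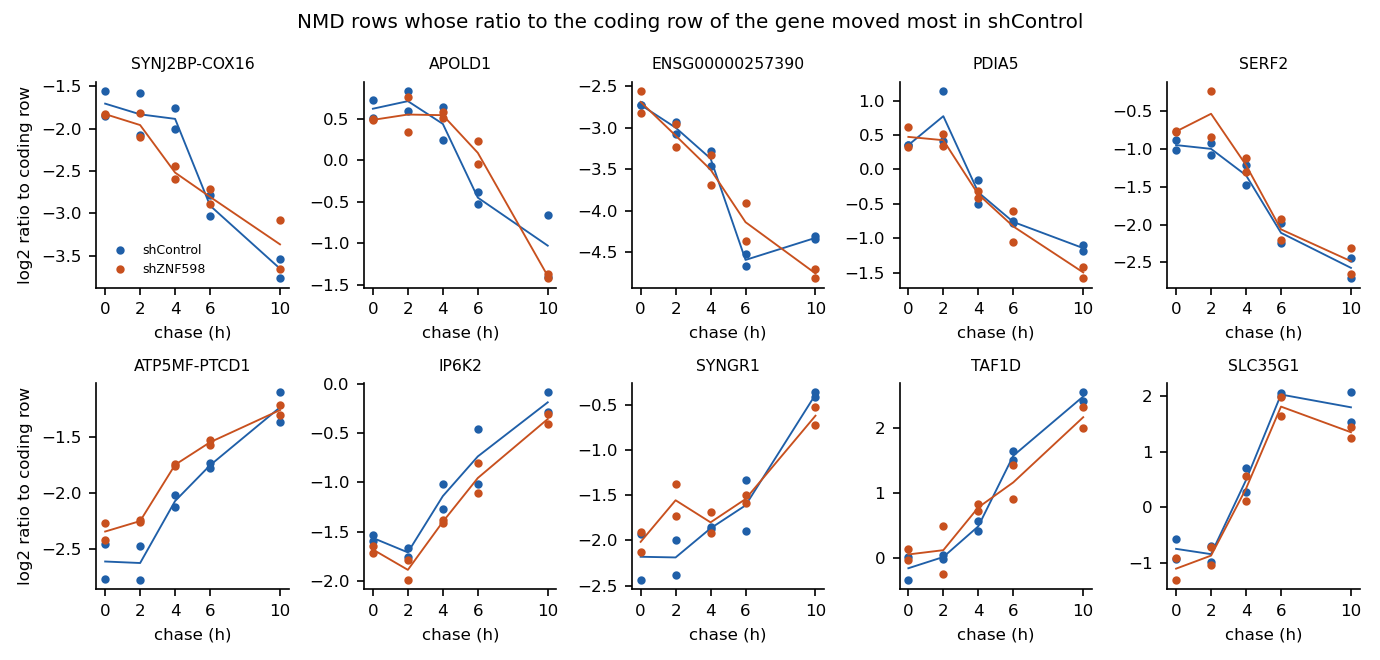
Log2 ratio of the decay row to the coding row of its gene over chase time in hours for the 10 rows with the largest called ratio slopes by the naming rule, with 1 point per library and lines through the means of each shRNA. In SYNJ2BP-COX16 the shControl ratios fall from -1.56 and -1.86 to -3.76 and -3.54, and in SLC35G1 they rise from -0.57 and -0.93 to 1.53 and 2.06.

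Gene lists were read out as counts, with no test of a list as a whole. SR proteins, which bind splicing enhancers and use poison exons themselves, had 26 rows of 13 genes. In shControl cells 22 were lost faster than the bulk and 1 slower, and against their coding rows 7 fell and 2 rose. With ZNF598 depleted, 2 ratios fell and 4 rose, so the lean toward falling ratios was not shared by both arms. List medians of the ratio slope had opposite signs, at -0.00178 (shControl) and 0.00163 (shZNF598). No ratio of this list was called for a difference between the shRNAs. The poison exon row of SRSF3 (ENST00000477442.6) had ratios of -1.11 and -1.03 at 0 h and -1.21 and -1.24 at 10 h, a slope of -0.0189 (SE 0.00582, adjusted p = 0.0336, limma). SRSF9 fell by 0.00629 log2 per hour (adjusted p = 0.0148, limma), SRSF7 was at -0.0307 with an adjusted p of 0.0565 (limma) and SRSF1 at -0.00297. The SRSF3 and SRSF9 slopes in shZNF598 cells, -0.0146 and -0.00205, were not called.

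The hnRNPs, which coat nascent RNA, had 43 rows of 18 genes, 26 slower and 5 faster than the bulk, with 10 ratios up and 6 down. HNRNPC, its highest row with 519.8 CPM, had a ratio slope of -0.00717 (adjusted p = 0.00462, limma). That row has no base outside coding transcripts, and 95.0% of its bases lie in its coding row. HNRNPH1 had a ratio slope of -0.0176 that was not called in shControl cells. All 52 rows of 32 ribosomal protein genes were retained longer than the bulk, with a median slope of 0.195 beside 0.200 for their coding rows, and 14 ratios rose and 8 fell. RPS2, with its early stop in a 187-nt exon, had a ratio slope of 0.00636 that was not called.

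Spliceosome genes with symbols starting SF3A, SF3B, U2AF, PRPF or SNRP had 22 rows of 11 genes, 7 slower and 13 faster than the bulk, with 4 ratios up and 4 down. Among them U2AF2, which recognises the polypyrimidine tract, rose by 0.0222 log2 per hour against its coding row (adjusted p = 0.0034, limma). Translation factors had 86 rows of 33 genes, 34 slower and 15 faster, with 5 ratios up and 12 down, and EEF1B2, an elongation factor subunit, fell by 0.0152 log2 per hour (adjusted p = 0.0269, limma). Zinc finger genes had 98 rows of 68 genes, 6 slower and 66 faster, at a median slope of -0.114 beside -0.126 for their coding rows, with 5 ratios up and 2 down. Genes of the decay machinery itself had 15 rows of 9 genes, 7 slower and 8 faster, with 2 ratios up and none down. The background for rows of all types stood at 33.5% slower, 40.8% faster, 9.79% ratios up and 6.9% down, and no row of these 7 lists was called for the 0 h level or for the slope difference between the shRNAs.

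Whether knockdown altered the level was asked at 0 h. Of the 9513 rows 2 were higher and 26 lower in shZNF598 than in shControl cells (0.294%, 18 genes), beside 0.407% of all rows, 0.0729% higher and 0.335% lower (edgeR). The median difference was 0.0266 log2, and 880 rows had an unadjusted p under 0.05. All 28 had a coding row that moved the same way, and it was called for 26 of them. The count rested on single 0 h libraries: it was 55 without shControl replicate 1, 165 without shControl replicate 2, 2 without shZNF598 replicate 1 and 3 without shZNF598 replicate 2.

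RPN1, ribophorin I of the oligosaccharyltransferase complex, was at 14.8 and 16.6 CPM in shControl and 6.85 and 7.31 CPM in shZNF598 cells at 0 h, a log2 difference of -1.15 (SE 0.114, adjusted p = 2.24e-06, edgeR). LRP2, the endocytic receptor megalin, was at 1.59 and 0.904 CPM against 0.450 and 0.613 CPM, a log2 difference of -1.22, and LRRC47 at 2.10 and 2.88 CPM against 0.836 and 1.32 CPM, a difference of -1.21. The groups did not overlap in these 3 genes. INPP5F, a phosphoinositide phosphatase, had 7 called rows, the largest at -0.96, and GALNT16, which starts mucin-type O-glycans, was at -0.94. RIT1, a Ras-related GTPase, was higher by 0.66 log2, with 4.62 and 5.54 CPM against 8.39 and 7.73 CPM, and ANXA2, a calcium-dependent membrane-binding protein, by 0.46.

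The slope difference between shZNF598 and shControl cells was called in 7 rows of 7 genes, 1 higher and 6 lower (edgeR), which is 0.0736% of the rows beside 0.116% of all rows, 0.00252% higher and 0.113% lower, and 505 rows had an unadjusted p under 0.05. RPN1 rose in shControl from 14.8 and 16.6 CPM at 0 h to 39.9 and 41.0 CPM at 10 h, and in shZNF598 cells dropped from 6.85 and 7.31 to 3.10 and 3.96 CPM. The groups did not overlap at any time, the slope difference was -0.246 log2 per hour (SE 0.0159, adjusted p = 1.39e-08, edgeR), and its coding row differed by -0.258. RTN3, a reticulon that shapes the endoplasmic reticulum, went from 10.0 and 9.21 to 15.7 and 16.7 CPM in shControl and from 5.58 and 5.70 to 2.28 and 2.32 CPM in shZNF598 cells. Its difference was -0.220 (SE 0.0230, adjusted p = 1.47e-05, edgeR) and that of its coding row -0.212, and all of its bases lie in that row.

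MDH1, cytosolic malate dehydrogenase, went from 10.3 and 12.2 to 43.9 and 48.6 CPM in shControl and from 10.8 and 10.5 to 23.4 and 19.7 CPM in shZNF598 cells, a slope difference of -0.108 (adjusted p = 0.00339, edgeR). ATP6AP1, an accessory subunit of the vacuolar proton pump, reached 27.8 and 27.9 CPM against 10.5 and 11.2 CPM at 10 h and differed by -0.104 (adjusted p = 0.0181, edgeR). At 0 h the MDH1 levels overlapped, while those of ATP6AP1 did not. DDX46, a helicase of the spliceosome outside the list of spliceosome genes above, differed by -0.104 (adjusted p = 0.0415, edgeR) and METTL5, an rRNA methyltransferase, by -0.127 (adjusted p = 0.0466, edgeR). LIMK1, a kinase of the actin regulator cofilin, was the one row with a higher slope: it went from 5.56 and 5.62 to 2.08 and 2.08 CPM in shControl and from 4.18 and 4.29 to 3.15 and 3.13 CPM in shZNF598 cells, a difference of 0.0998 (adjusted p = 0.0118, edgeR). The coding rows of these 7 moved the same way and passed the test in 6, all but that of LIMK1 (adjusted p = 0.0575, edgeR). The count was 4 and 3 without either shControl 10 h library, and 4 without any one of the shZNF598 0 h and 10 h libraries.

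**Figure D5:**
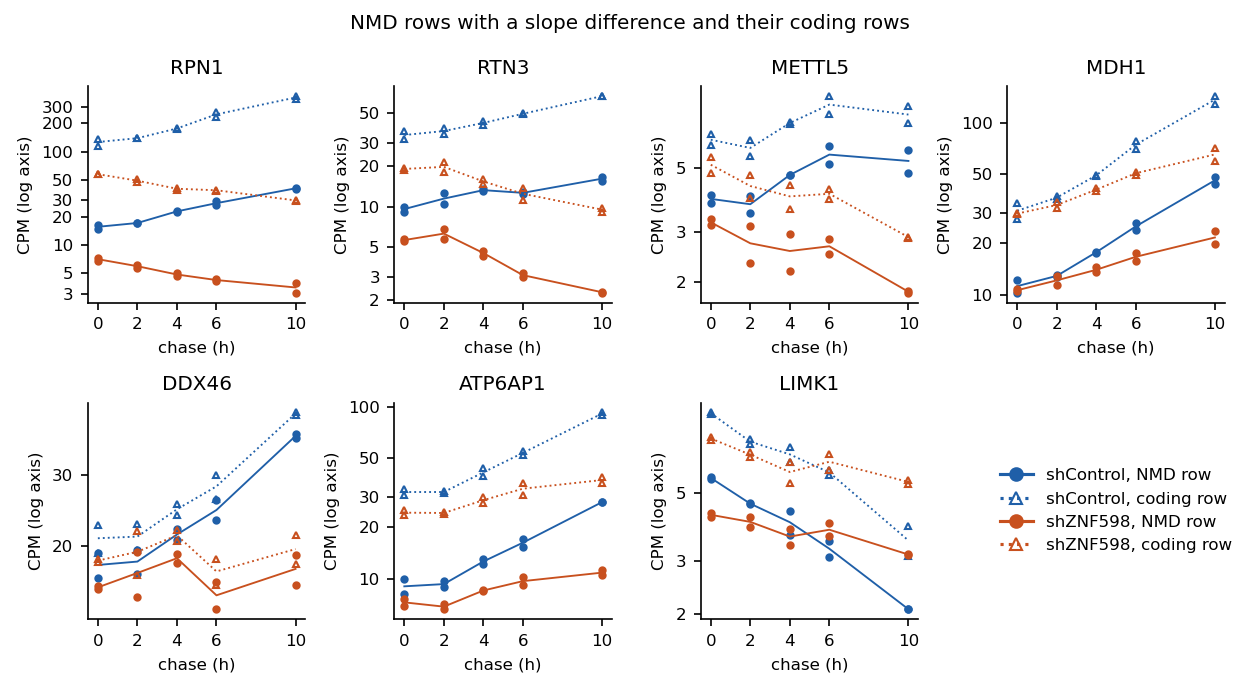
Level in CPM on a log axis over chase time in hours for the 7 annotated decay rows (NMD row, filled points, solid lines through the means) whose slope differed between shControl and shZNF598 cells and for their coding rows (open triangles, dotted lines), with 1 point per library. RPN1 reaches 39.9 and 41.0 CPM at 10 h in shControl and 3.10 and 3.96 CPM in shZNF598 cells, and LIMK1 crosses in the other direction.

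Set against the coding row, no slope difference was detected in these genes: for RPN1 the ratio slope differed by 0.0129 and for RTN3 by -0.00640 log2 per hour, and neither was called. The decay rows of RTN3, METTL5, ATP6AP1 and LIMK1 lie wholly inside their coding rows, and that of DDX46 by 96.7% of its bases. Shared reads pull such ratio differences toward 0, here and over all rows, so their absence says little about the decay rows' own RNA. Over all 9226 rows the ratio slope differed between the shRNAs in 0 rows at an adjusted p below 0.05 (limma), with 508 at an unadjusted p under 0.05, a smallest adjusted p of 0.481 and a background of 0.0016%. The coding rows of the decay factors and exon junction proteins, 19 of 20 genes found, were called in 0 cases for the 0 h level and in 0 for the slope difference (edgeR), with slope differences of -0.0438 to 0.0526.

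In a few rows the exons of a coding row lie wholly within the decay row, and the difference of the 2 counts was read as the signal of the extra bases. Of 55 such pairs 28 had a negative mean difference, so the difference is a net count and not a clean count of unshared reads, and why was not tested. Of the 11 pairs of 6 genes with at least 20 reads and no negative library, 7 rows of 4 genes, 3 of them rows of ENSG00000268790 that share reads, fell relative to the bulk in shControl cells and 0 rose (edgeR). The background was 44.4% of 18 pairs of all types, a total that holds these 11 pairs and has 1 other call. In the shZNF598 cells 4 rows of 2 genes fell (background 27.8%), and 0 differed between the shRNAs, with 1 at an unadjusted p under 0.05. CINP, a genome maintenance protein, went from 1.99 and 1.90 CPM at 0 h to 0.611 and 0.595 CPM at 10 h in shControl cells. Its slope there was -0.197 (SE 0.0491, adjusted p = 0.00152, edgeR). In shZNF598 cells it went from 1.53 and 1.40 CPM at 0 h to 0.549 and 0.296 CPM at 6 h and 0.855 and 0.952 CPM at 10 h. Of the 3317 extra bases of CINP, 1380 lie in exons of another gene. The shControl slopes were -0.149 for ENSG00000257921, -0.124 for BORCS8-MEF2B and -0.123 for ENSG00000268790. All the bases of these 3 rows lie in exons of other genes.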

How the data were processed

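BrU-labelled RNA was sequenced in 22 libraries of HEK293T cells with shControl or shZNF598. The deposited tables give, for each transcript, a raw count per library and its length in codons, rounded. Per the labels and the study's methods, the authors trimmed reads with fastp, removed reads of noncoding RNAs, aligned the rest with STAR 2.7.0a to hg38 with GENCODE transcripts, allowing 1 mismatch and 1 locus, and counted them per transcript with featureCounts. The strand and overlap settings are not given in the sources used here, and spike-ins were not used here. Reads shared by isoforms can enter several rows, which pulls rows of a gene together.

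Transcript types, structures and sequences came from GENCODE 44 on GRCh38, a later release than the one the authors counted with, which named 98.4% of the rows, 92.2% with the same version; structures used only the latter. Levels, slopes and slope differences were tested with edgeR 4.0.16 (quasi-likelihood, TMM, R 4.3.3) over 79513 rows with a mean of at least 1 CPM in the 20 libraries of 0 to 10 h. Ratios to the coding row, log2((row + 0.5)/(coding + 0.5)), were fitted with limma 3.58.1 (trend, robust) over 62362 rows. Adjusted p-values are Benjamini-Hochberg over all rows of a fit, at 0.05. Levels per kb are CPM divided by transcript length. Mean counts of the decay rows ran from 67.6 to 64266 per library (median 310.5).

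Members, gene lists and tests were chosen with earlier results of these data known. Named rows were, for level and slope difference, called rows up to 10 or else the 5 genes per direction with the largest values, and for ratio and nested slopes the 5 genes per direction with the largest called slope of equal sign in each replicate alone. For the lists the most abundant rows were named, except for a result that is not reported here. HEK293T and other cell type genes were a marker check. On simulated data the level test recovered 73.5% of 200 rows changed by 1 log2, and the slope difference test 94.0% of rows changed by 0.15 log2 per hour. For rows changed by -0.1 log2 per hour in shControl cells alone the slope test recovered 68.5%. The ratio slope test recovered 24.0% of rows changed by -0.1 log2 per hour in both shRNA arms. Simulated rows shared no reads with their coding rows. Alternatives were DESeq2 1.42.0, other scalings, filters, pseudocounts and time ranges, 1 row per gene and leaving out each library.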

Additional observations from a re-analysis of the deposited data

Results flagged for a closer look

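In 7 rows the slope over the chase differed between shZNF598 and shControl cells by the test of the difference itself (edgeR, adjusted p below 0.05). The differences were -0.246 log2 per hour in RPN1, -0.220 in RTN3, -0.127 in METTL5, -0.108 in MDH1, -0.104 in DDX46, -0.104 in ATP6AP1 and 0.0998 in LIMK1. Their coding rows differed by -0.258, -0.212, -0.117, -0.103, -0.104, -0.0897 and 0.0894 in the same order, and the decay rows of RTN3, METTL5, ATP6AP1 and LIMK1 lie wholly inside those rows. The calls were not equally firm under the alternative settings. The result was the same in 27 and weaker in 2 for RPN1, and 26 and 3 for both RTN3 and MDH1. For LIMK1 these numbers were 21 and 7, and for ATP6AP1 20 and 9. METTL5 was the same in only 7 and weaker in 21. DDX46 was the same in 10, weaker in 18 and reversed in 1.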

How the results depend on the processing

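The 28 rows called for level at 0 h became 0 with the 0 h libraries alone, 48 by DESeq2, 14 at a mean of at least 5 CPM, 16 with 1 row per gene, and 2 to 165 on leaving out 1 library. The 6938 rows called for slope in shControl cells became 2670 over 0 to 24 h, 2902 over 0 to 4 h, 3541 at 5 CPM, 3292 with 1 row per gene, and 6415 to 6999 on leaving out 1 library. The 7 slope differences became 0 over 0 to 24 h, 0 over 0 to 4 h, 1 over 0 to 6 h, 43 by DESeq2, 4 with a filter of 10 counts alone, and 3 to 9 on leaving out 1 library. The 1511 ratio slopes became 3381 over 0 to 24 h, 9 over 0 to 4 h, 386 over 0 to 6 h, 663 with 1 row per gene, 233 in rows with at least 25% outside, and 854 to 1592 on leaving out 1 library. The 0 ratio slope differences became 197 over 0 to 24 h, where each shRNA has 1 library at the last time, and stayed at 0 on leaving out 1 library. The 7 nested slopes became 3 over 0 to 4 h, 3 over 0 to 6 h, 4 at 50 reads and 7 to 8 on leaving out 1 library, and the 0 nested differences stayed at 0. The lower counts at 5 CPM, with 1 row per gene and in rows with 25% outside come from fewer rows, and for the others the cause was not tested.

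Signs turned over early times: the median slope in shControl cells, -0.0140, was 0.00567 over 0 to 4 h and 0.00947 over 0 to 6 h, and the median ratio slope, 0.000656, was -0.000724 and -0.000167. The DDX46 slope difference was 0.00661 over 0 to 4 h and the ENSG00000257921 nested slope 0.00417. With DESeq2 size factors more rows were slower (3530) than faster (3356) than the bulk, against 3194 and 3744 with TMM.

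The correlation of same-numbered deviations was -0.005, 0.12, 0.35, 0.299 and -0.228 at the 5 times, so not every pair was positive and the numbers were not taken to pair the samples. With a replicate block the counts were 36, 6909, 6, 1475, 0, 7 and 0 in the order above. Nested pairs without another gene's bases were too few, and that alternative was not run. The ratio test recovered 24.0% of simulated slopes of -0.1 log2 per hour. Simulated rows were drawn independently and, unlike the real rows, shared no reads with their coding rows. This share therefore does not measure the sensitivity of the ratio test on the real rows. Whether real ratio changes of that size went undetected cannot be told from it.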
